A study of Gallus gallus with 77 samples.

Results

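The experiment described here is the earliest time point of a laser wounding study of the chick cochlea, 30 min after injury. Its members are the 25 arrays, of 77 in the whole series, that the sample titles give as laser-treated cochlea at 30 min. All groups used cultured cochlear sensory epithelium of White Leghorn chicks (Gallus gallus) in the second or the third week after hatching, isolated from the surrounding tissue and grown on fibronectin for about a week. The laser group was wounded with a pulsed laser microbeam and left to recover for 30 min, and the control group was cultured in the same way without a wound. The other time points of the study, used here for comparison and for the estimate of error, recovered for 1, 2 or 3 hr. No genotype, transgene or drug separated the groups.

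Each array carried laser RNA in 1 dye and control RNA of the same time in the other. There were 2 biological replicates, with 13 arrays of replicate 1 and 12 of replicate 2. In replicate 1, 6 arrays had Cy3 on the laser RNA (Cy3-laser arrays) and 7 had Cy5 (Cy5-laser arrays). Replicate 2 had 6 of each. The arrays of a replicate were repeats of the same RNA pair, so that n is 2 for every test. A biological sample was a pool of several cultures, and its RNA went through repeated amplification before labelling. The probes were designed against human transcription factor genes and were used across species, so that gene names are the human names of the probes. Of the 1507 genes measured, 817 (54.2%) had a name that matched a symbol or synonym in the chicken annotation. This is a match of names, many of them old, and does not measure whether a probe has a chicken target. The study states that nearly all of its probes share most of their sequence with the correct chicken ortholog.

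The cochlear sensory epithelium of birds holds hair cells, which detect sound, and supporting cells, which surround them and can give rise to new hair cells after injury. Wounding of epithelia is known to set off kinase and calcium signals that act within minutes on transcription factors already present in the cell, such as CREB1 and SRF. These switch on the immediate early genes, among them the FOS and JUN families that form the AP-1 complex and the EGR family of zinc finger factors, without new protein synthesis. The question put by this time point was which transcription factor genes differ in RNA level at this early stage.

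The value reported for a gene is a log2 ratio of laser over control, so that 0 is no difference and 0.26 is a 1.2-fold difference. Arrays were first averaged within a dye orientation, then both orientations within a replicate, so that a replicate with more arrays of an orientation gave it no more weight. The 2 replicates at 30 min were tested against 0 in limma with a spread pooled over the 8 replicates of 4 time points. The reported SE of a gene is that of the mean of 2 replicates and is taken from this pooled fit. It is not the spread of the 2 replicates at 30 min, which can lie farther apart. In RNA of a whole culture, fewer cells of a type and less RNA per cell cannot be told apart.

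The direction of each ratio at this time point was settled by the labels. The dye named for the laser RNA in the scanner image names matched the digit in the title on 25 of 25 arrays. Over the whole series this match was found on 49 of 77 arrays. On the remaining arrays, all of later time points, the direction rests on the titles alone. The pooled spread and the comparison with later time points use those arrays too. The 25 arrays of this time point differed in quality. Median signal over local background lay between 3.08 and 32.4, and the SD of log2 ratios over genes lay between 0.31 and 0.82. The dates in the file headers split the 25 arrays into 4 groups, called A to D here in order of date. Dates A and B held arrays of replicate 1, date C held arrays of replicate 2, and date D held arrays of both. The 3 arrays with the widest spread of ratios, with SDs of 0.61, 0.77 and 0.82, were Cy5-laser arrays of replicate 1 with date A. With the signs turned, pairs of arrays of the same replicate and the same orientation had a median correlation across genes of 0.17, and pairs of opposite orientation had a median of -0.11, with 67 of 78 such pairs below 0. Between the orientation means the correlation over the 1507 genes was -0.24 in replicate 1 and -0.60 in replicate 2, whereas the same orientation correlated at 0.53 (Cy3) and 0.31 (Cy5) between replicates. These values are descriptions across genes, which are not independent replicates. A dye term, the mean of Cy5-laser arrays minus that of Cy3-laser arrays, passed an adjusted p of 0.05 for 57 genes. In log2 units its absolute value had a median of 0.24 over genes, and that of the laser ratio had a median of 0.07. The dye term is a difference of orientation means and the laser ratio is their average. Noise alone, if equal and independent in both orientations, makes such a difference 2 times as wide as the average. The medians are thus not on the same scale, and the part of noise in the dye term was not tested. The plot of both orientations shows this spread.

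**Figure D1:**
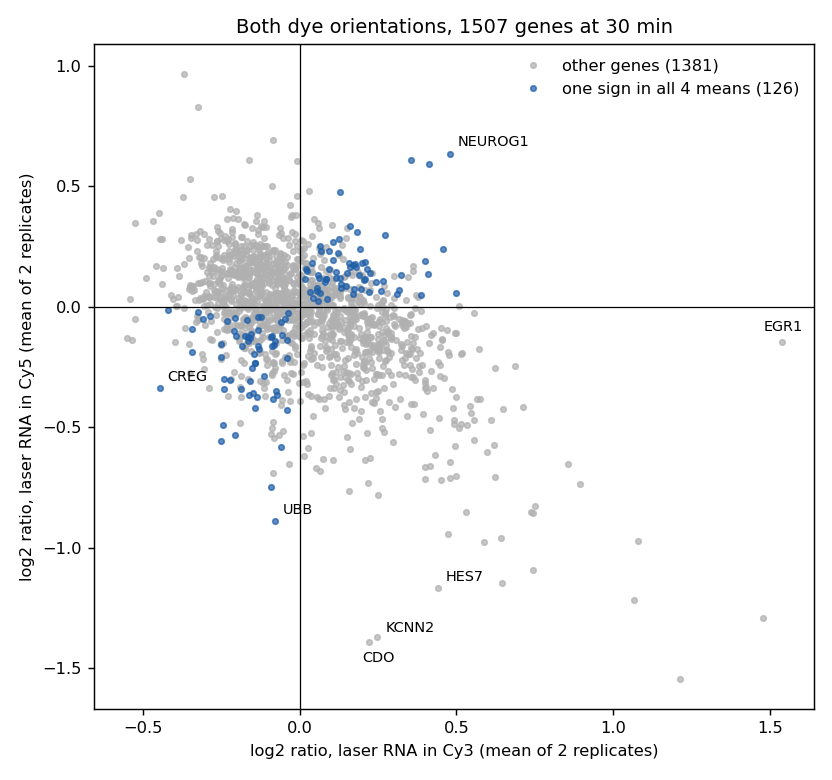
Each point is 1 of 1507 genes. The x axis gives the log2 ratio of laser over control from Cy3-laser arrays and the y axis from Cy5-laser arrays, each as the mean of 2 replicates. Most points lie in the upper left and the lower right, where the orientations disagree in sign, and the 126 genes in blue had the same sign in all 4 replicate and dye means.

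At 30 min, 0 of 1507 genes passed an adjusted p of 0.05 together with a 1.2-fold difference (0% of genes; limma with Benjamini-Hochberg adjustment). The smallest adjusted p was 0.0786, shared by NEUROG1 and EGR1, and CREB1 followed at 0.0792. An unadjusted p under 0.05 was reached by 135 genes (8.96%), of which 52 (3.45%) also differed over 1.2-fold, 14 higher (0.929%) and 38 lower (2.52%) in laser cultures. A gene counted as agreeing between dyes and replicates when its 4 means, from each dye orientation of each replicate, had the same sign. This held for 126 genes (8.36%), 66 higher (4.38%) and 60 lower (3.98%). The 4 signs can also agree without a laser effect, so the 126 genes do not by themselves show a response. Both criteria were met by 22 genes (1.46%), 9 higher (0.597%) and 13 lower (0.863%). No control oligo differed over 1.2-fold, over 27 control names whose log2 ratios ran from -0.23 to 0.17. Of the 27, 2 had the same sign in all 4 means. These names are too few to compare with the shares of genes. The split between higher and lower depended on the scaling of arrays. It was 17 higher and 21 lower when loess was replaced by median centring, and 10 and 14 with arrays scaled to the same spread.

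Among the genes that agreed in sign, NEUROG1 had the largest ratio. It encodes neurogenin 1, a basic helix-loop-helix factor that starts the neuronal fate of inner ear progenitors. With the laser RNA in Cy3, the log2 ratio in replicate 1 had a lowest value of -0.35, a median of 0.32 and a highest of 1.60 over 6 arrays. With the laser RNA in Cy5 it ran from -0.17 through a median of 0.49 to 1.62 over 7 arrays. In replicate 2 it ran from -0.11 through 0.57 to 1.05 with the laser RNA in Cy3, and from 0.24 through 0.39 to 1.53 in Cy5. The ratio was above 0 on 22 of 25 arrays, and the 3 arrays below 0 came from 3 of the 4 combinations of replicate and dye. The replicate means were 0.54 and 0.57, and the mean was 0.56 ± 0.10 (SE, n = 2), a 1.47-fold higher level in laser cultures (adjusted p = 0.0786). The 2 spots of the gene gave 0.53 and 0.59. Its mean signal in the control channel was 7586, and no spot of it was saturated. The control oligos had mean signals of 809 to 3517 over both channels, with a median of 1074. The level of 1000 used below lies under that median, so that reaching it does not show detection.

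CREB1, the cyclic AMP response element binding protein that activates FOS and other immediate early genes when phosphorylated, was next. Its ratio in replicate 1 ran from -0.53 through a median of 0.53 to 0.79 with the laser RNA in Cy3 and from 0.03 through 0.63 to 2.19 in Cy5. In replicate 2 it ran from -1.14 through 0.55 to 1.57 in Cy3 and from -0.66 through 0.33 to 1.54 in Cy5. It was above 0 on 20 of 25 arrays, including 7 of 7 Cy5-laser arrays of replicate 1, while repeats of the RNA pair of replicate 2 were scattered on both sides of 0. The mean was 0.50 ± 0.10 (SE, n = 2), from replicate means of 0.63 and 0.37 (1.42-fold, adjusted p = 0.0792).

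NFIL3, a basic leucine zipper repressor also induced as an early gene in other cell types, had a mean of 0.35 ± 0.09 (SE, n = 2), with replicate means of 0.27 and 0.42 (adjusted p = 0.225). The arrays of replicate 1 were far apart, from -1.27 through a median of 0.33 to 3.26 with the laser RNA in Cy3 and from -1.53 through -0.19 to 2.52 in Cy5, where the mean was 0.005. The arrays of replicate 2 were closer together, from -0.08 through a median of 0.49 to 0.64 in Cy3 and from -0.11 through 0.22 to 1.37 in Cy5. The ratio was above 0 on 15 of 25 arrays, 5 of 13 in replicate 1 and 10 of 12 in replicate 2. Single arrays of replicate 1 set its level, as was seen when each array was left out in turn, an alternative chosen after the data were seen. Without the array at 3.26 the mean of replicate 1 was 0.003 and the ratio 0.21, under 1.2-fold. Without the array at 2.52 the Cy5 mean of replicate 1 was -0.41, and the 4 means no longer agreed in sign.

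EGR1, the immediate early zinc finger factor, had the largest mean ratio of all genes, 0.70 ± 0.13 (SE, n = 2; 1.62-fold, adjusted p = 0.0786), but its orientations disagreed. The replicate means were also far apart, at 0.33 and 1.06. With the laser RNA in Cy3, all 6 arrays of replicate 2 were high, from 1.78 through a median of 2.23 to 2.68, and replicate 1 ran from -0.13 through 0.65 to 2.01. With the laser RNA in Cy5, replicate 2 ran from -0.80 through -0.14 to 0.36 and replicate 1 from -0.61 through -0.07 to 0.26. The Cy3-laser arrays of replicate 2 did not overlap with any Cy5-laser array, and both Cy5 means were slightly below 0, at -0.14 and -0.15. The mean control channel signal of EGR1 was 1091, near the median of 1074 for the control oligos. The size of its ratio is thus uncertain. In unnormalized signal the orientations differed too. In replicate 2 the median Cy3 signal of laser RNA was 2991 against 1072 for control RNA in Cy5, whereas on arrays with the dyes exchanged it was 1615 for laser RNA in Cy5 against 1395 for control RNA in Cy3. The dye term of EGR1 was -1.68 (adjusted p = 0.00257). Both spots gave nearly the same ratio, 0.68 and 0.71. The part of the dye in the laser ratio was not tested beyond this term.

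**Figure D2:**
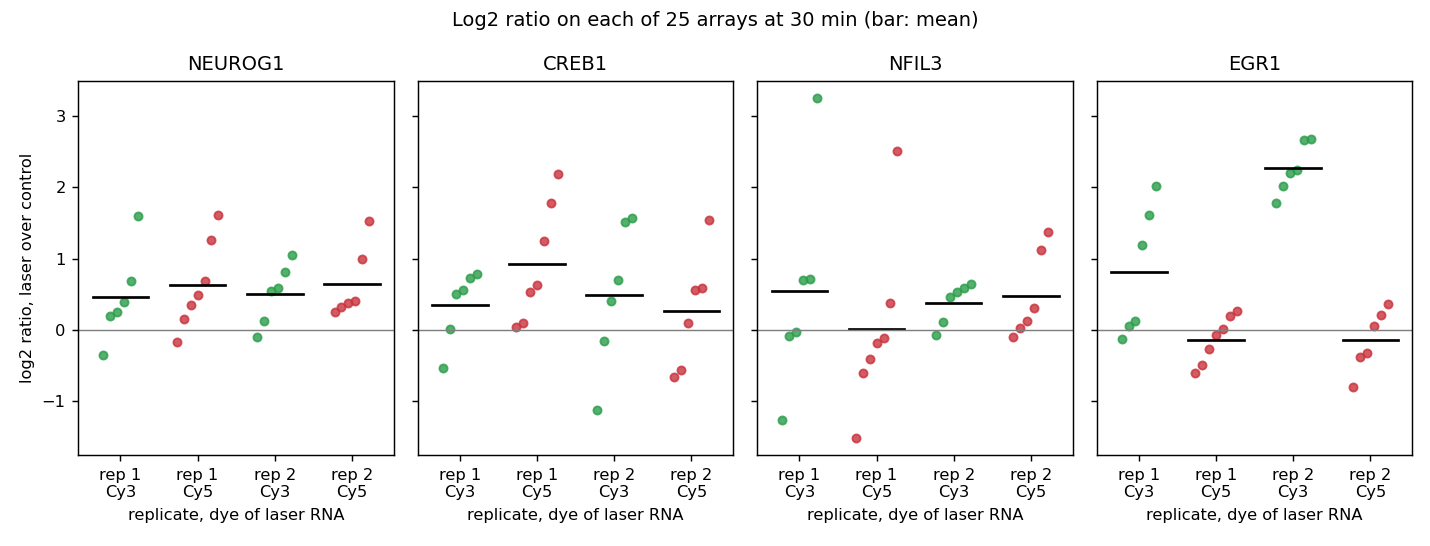
Points are the 25 arrays at 30 min, split on the x axis by biological replicate and by the dye of the laser RNA (green Cy3, red Cy5). The y axis is the log2 ratio of laser over control and the bars are means. NEUROG1 had similar means of 0.46 to 0.64 in all 4 columns, whereas EGR1 was at 2.27 in replicate 2 with the laser RNA in Cy3 and at -0.15 with it in Cy5.

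ATBF1, a large zinc finger and homeodomain factor now named ZFHX3, had a mean of 0.48 ± 0.12 (SE, n = 2; adjusted p = 0.225), with replicate means of 0.68 and 0.28. Its arrays overlapped 0 in every combination of replicate and dye, with medians of 0.85 and 0.43 in replicate 1 and of 0.14 and 0.34 in replicate 2 (Cy3 and Cy5). CHFR, a ubiquitin ligase of a mitotic checkpoint, had a mean of 0.30 ± 0.10 (SE, n = 2; adjusted p = 0.422) and was above 0 on 20 of 25 arrays, including 7 of 7 Cy5-laser arrays of replicate 1. The remaining higher genes that agreed in sign and also passed the unadjusted p and 1.2-fold lay between 0.27 and 0.29. These were TCEB3, ZNF230, TNRC5 and RNF2, named to complete the count. Mean control channel signals were 1242 for CHFR, 1203 for TCEB3, 1189 for ZNF230, 1303 for TNRC5 and 1541 for RNF2. All lay within the range of 809 to 3517 of the control oligos. ZNF230 was above 0 on 20 of 25 arrays. The study's own criterion asked for the same direction on at least 80% of arrays. It was met by 16 genes (1.06%), of which 7 also had an unadjusted p under 0.05 and a 1.2-fold difference, namely NEUROG1, CREB1, CHFR and ZNF230 among the higher and ETV5, MAPK8IP1 and NR1D2 among the lower.

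**Figure D3:**
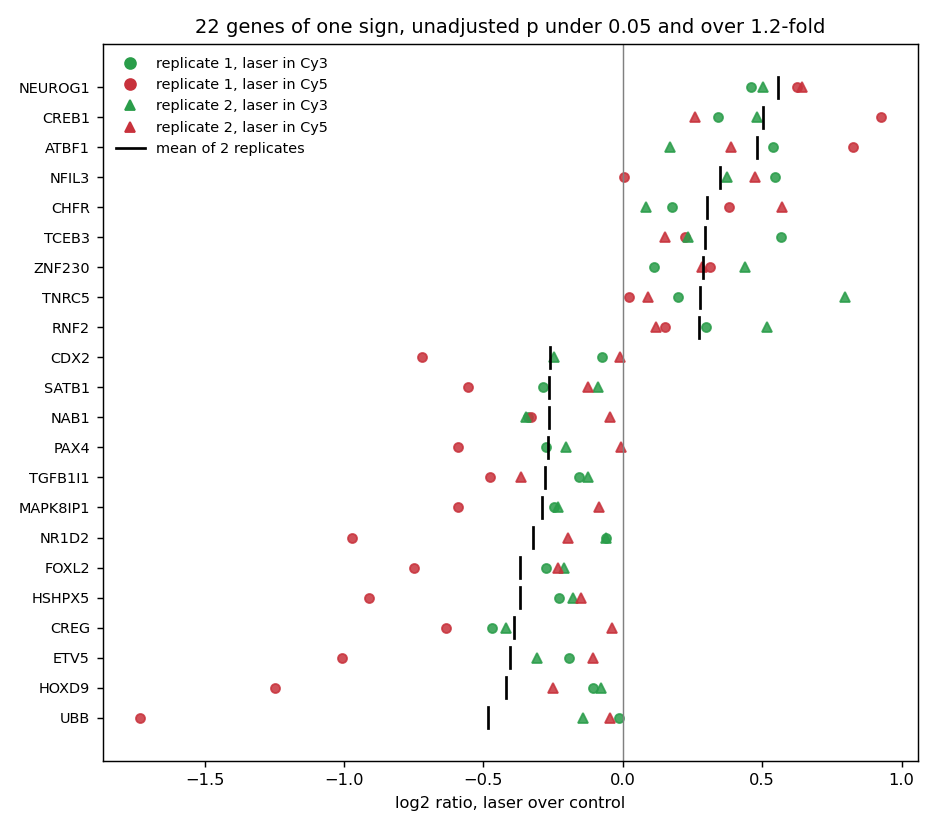
The x axis is the log2 ratio of laser over control for the 22 genes whose 4 means had the same sign and whose unadjusted p was under 0.05 with over 1.2-fold. Symbols give the mean of each replicate (circle, 1; triangle, 2) and dye of the laser RNA (green Cy3, red Cy5), and black bars the mean of 2 replicates. Among the 13 lower genes the red circle, replicate 1 with the laser RNA in Cy5, was mostly the farthest from 0, down to -1.73 for UBB.

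The lower genes rested largely on the Cy5-laser arrays of replicate 1. Of the 38 genes that were lower by unadjusted p and 1.2-fold, 33 had their lowest mean there. UBB, which encodes a polyubiquitin, had the most negative ratio of those that agreed in sign, with a mean of -0.48 ± 0.15 (SE, n = 2; adjusted p = 0.422). In replicate 1 it ran from -3.60 through a median of -1.61 to 0.07 with the laser RNA in Cy5, but from -0.57 through -0.23 to 1.00 in Cy3. In replicate 2 it ran from -0.38 through -0.04 to 0.31 in Cy5 and from -0.78 through -0.18 to 0.50 in Cy3. The replicate means were -0.87 and -0.09. At least 1 spot of UBB was saturated on 12 of 12 arrays of replicate 2 and on 0 of 13 of replicate 1, with median signals in replicate 2 of 65508 in laser and 65448 in control RNA on Cy3-laser arrays. A saturated signal gives only a lower bound of the level, so that the size of the ratio in replicate 2 is not known and the replicates cannot be compared for this gene.

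HOXD9, a homeobox gene of body patterning, showed the same arrangement, with a mean of -0.42 ± 0.11 (SE, n = 2; adjusted p = 0.225). Its Cy5-laser arrays of replicate 1 were all below 0, from -3.37 through a median of -0.59 to -0.06, and the other 3 means were -0.11, -0.08 and -0.25. ETV5, an ETS factor downstream of fibroblast growth factor signalling, had a mean of -0.40 ± 0.10 (SE, n = 2; adjusted p = 0.225) and was below 0 on 20 of 25 arrays. These included 6 of 6 Cy3-laser arrays of replicate 2, which ran from -0.76 through -0.18 to -0.05. NR1D2, a nuclear receptor that represses transcription in the circadian clock (REV-ERB beta), was below 0 on 21 of 25 arrays, with a mean of -0.32 ± 0.09 (SE, n = 2; adjusted p = 0.325). Its replicate means were -0.52 and -0.13.

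CREG, a repressor of E1A-stimulated genes, had a mean of -0.39 ± 0.09 (SE, n = 2; adjusted p = 0.205), although only 13 of 25 arrays were below 0. Its medians in the 4 combinations of replicate and dye lay between -0.22 and 0.11, so that single arrays down to -3.11 set the mean. FOXL2, a forkhead factor known from ovary and eyelid, and HSHPX5 both had means of -0.37, and their arrays were below 0 on 16 and 18 of 25. TGFB1I1 (Hic-5), a focal adhesion protein induced by TGF-beta and a coactivator of nuclear receptors, had more even means of -0.32 and -0.25 in the replicates (mean -0.28 ± 0.08, SE, n = 2; adjusted p = 0.25). It was below 0 on 18 of 25 arrays.

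Ratios were then taken within header dates. Both orientations were present in 5 combinations of replicate and date, which allowed a ratio within each. These ratios come from the same arrays by which the genes were named. Their agreement in sign is thus in part built in and is not an independent check. In replicate 1 on date D the Cy5-laser value came from 1 array. NEUROG1 was above 0 in all 5, from 0.44 to 0.77. CREB1 ran from 0.26 to 1.09 and ATBF1 from 0.15 to 0.92, both without a value below 0. NFIL3 ran from 0.09 to 0.93 and EGR1 from 0.07 to 1.37. Within a date the orientations could differ. On date D, NEUROG1 ran from -0.35 to 0.19 on Cy3-laser arrays and from 0.99 to 1.62 on Cy5-laser arrays. On date C its Cy3-laser arrays were the higher, from 0.54 to 1.05 against 0.24 to 0.41. CREB1 on date D ran from -0.53 to 0.50 on Cy3-laser arrays and from 0.55 to 2.19 on Cy5-laser arrays. EGR1 on date C ran from 1.78 to 2.68 on Cy3-laser arrays and from -0.80 to 0.05 on Cy5-laser arrays. NFIL3 on date A was at 0.70 and 3.26 on Cy3-laser arrays and ran from -1.53 to 0.38 on Cy5-laser arrays. UBB was at -1.35 on date A and between -0.27 and -0.01 in the other 4 combinations. HSHPX5 was at -0.94 on date A and between -0.20 and -0.05 elsewhere, and HOXD9 was at -0.98 on date A and at 0.13 in replicate 2 on date D. Other lower genes were below 0 in all 5, among them TGFB1I1, from -0.35 to -0.05 with -0.21 on date A, MAPK8IP1, from -0.57 to -0.06, and NAB1, from -0.45 to -0.05. The same sign in all 5 combinations was found for 157 genes (10.4%), and 24 of these (1.59% of genes) also passed the unadjusted p and 1.2-fold, 12 higher and 12 lower.

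**Figure D4:**
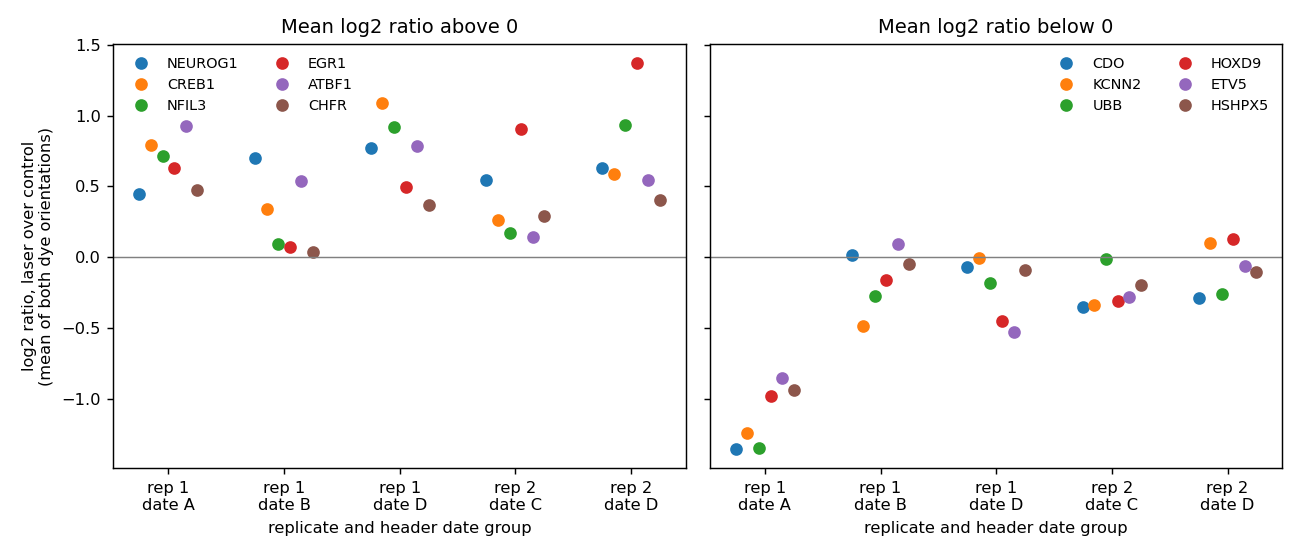
The y axis is the log2 ratio of laser over control, as the mean of both dye orientations within 1 replicate and 1 header date group (x axis), for 6 genes with a mean above 0 (left) and 6 with a mean below 0 (right). All 6 genes on the left were above 0 in every column, although the orientations averaged in a column could differ in sign. The columns are parts of the same arrays by which the genes were named, so this is not an independent check. The 6 genes on the right were between -1.35 and -0.86 on date A of replicate 1 and between -0.53 and 0.13 in the other columns.

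When the 6 arrays of date A were left out, an alternative chosen after the data were seen, 40 genes passed the unadjusted p and 1.2-fold, 28 higher and 12 lower. They included 12 of the 14 higher genes and 3 of the 38 lower genes found with all arrays. In this fit 4 genes passed the adjusted p of 0.05. These were NEUROG1 (0.60 ± 0.10, adjusted p = 0.0227), CREB1 (0.46 ± 0.09, adjusted p = 0.0469), EGR1 (0.66 ± 0.13, adjusted p = 0.0469) and JIK (0.39 ± 0.08, adjusted p = 0.0469). The dates of a replicate were also averaged with equal weight, an alternative likewise chosen after the data were seen. NEUROG1, CREB1, EGR1 and NFIL3 then passed at an adjusted p of 0.012 each, with ratios of 0.61, 0.58, 0.77 and 0.56. Both alternatives, without date A and with dates averaged, gave more weight to the only Cy5-laser array of replicate 1 on date D. That array was at 1.62 for NEUROG1, 2.19 for CREB1, 0.26 for EGR1 and 2.52 for NFIL3. Each was the highest Cy5-laser value of replicate 1 for its gene. Without date A the ratio was -0.21 for UBB, -0.24 for HOXD9 and -0.13 for HSHPX5, nearer to 0 than with all arrays. It was -0.27 for TGFB1I1 and -0.31 for TFDP1, beside -0.28 for both with all arrays.

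The immediate early genes were described as 3 lists. The AP-1 list held 15 measured subunits and dimer partners, and 0 of them passed the unadjusted p and 1.2-fold in either direction, beside 3.45% of all genes. Their median ratio was -0.01 and that of all genes was -0.004. FOS had a mean of 0.02 ± 0.09 (SE, n = 2; adjusted p = 0.97), from replicate means of -0.12 and 0.15. Its arrays lay on both sides of 0 in every combination, from -0.30 through 0.05 to 0.50 (Cy3) and from -1.42 through -0.26 to 0.60 (Cy5) in replicate 1, and from -0.73 through 0.45 to 0.77 and from -0.23 through -0.08 to 0.70 in replicate 2. The 95% confidence interval of FOS ran from -0.18 to 0.21. The study itself reported FOS as higher in laser cochlea at this time point, on its arrays and by quantitative PCR on new samples. The increase was larger by PCR, and the study states that its arrays in general under-reported changes. The ratio near 0 found here thus does not show that FOS was not induced. The source of the difference from the array value of the study was not tested.

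JUN had a mean of -0.15 ± 0.08 (SE, n = 2; adjusted p = 0.59). Its 6 Cy5-laser arrays of replicate 2 were all below 0, from -0.37 through -0.17 to -0.02, whereas its Cy3-laser arrays of the same replicate ran from -0.16 through 0.12 to 0.40. FOSL2 had the same sign in all 4 means, with a ratio of 0.09 ± 0.09, and FOSB and FOSL1 were at 0.17 ± 0.08 and 0.13 ± 0.08 (SE, n = 2). These 3 FOS family members did not pass the unadjusted p with 1.2-fold.

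Of 24 other immediate early genes measured, EGR1 and NFIL3 passed the unadjusted p and 1.2-fold, both higher, and 0 were lower, beside 0.929% and 2.52% of all genes. The list had a median of -0.02. The relatives of EGR1 were near 0, with ratios of -0.04 for EGR2, -0.09 for EGR3 and 0.06 for EGR4. The NR4A nuclear receptors, which are early genes in many cell types, lay between -0.09 and 0.06, MYC was at -0.09 and ATF3 at -0.04. EGR2, EGR4 and NR4A2 had mean signals of 914, 1258 and 1233, near the median of 1074 for the control oligos. At such signals a ratio near 0 says little about the RNA level. Of 21 regulators of immediate early genes, 1 passed higher (CREB1) and 2 lower, beside the same shares of all genes. Their median was -0.005, and all 3 had the same sign in both dyes of both replicates.

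The 2 lower regulators were MAPK8IP1 and NAB1. MAPK8IP1 (JIP1), the scaffold that assembles the JNK kinases acting on JUN, had a mean of -0.29 ± 0.10 (SE, n = 2; adjusted p = 0.422) and was below 0 on 21 of 25 arrays. NAB1, a corepressor that binds EGR proteins, had a mean of -0.27 ± 0.09 (SE, n = 2; adjusted p = 0.422), with replicate means of -0.33 and -0.20. Its arrays were below 0 on 17 of 25, and the Cy5-laser arrays of replicate 2 were split 3 and 3. Relatives of CREB1 were at 0.08 for ATF1 and -0.10 for CREM, whose mean signal of 1032 was at the level of the control oligos. SRF, which drives immediate early genes together with the ELK factors, was at 0.08 ± 0.09 (SE, n = 2; adjusted p = 0.807), above 0 with the laser RNA in Cy3 (0.28) and below it in Cy5 (-0.12).

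**Figure D5:**
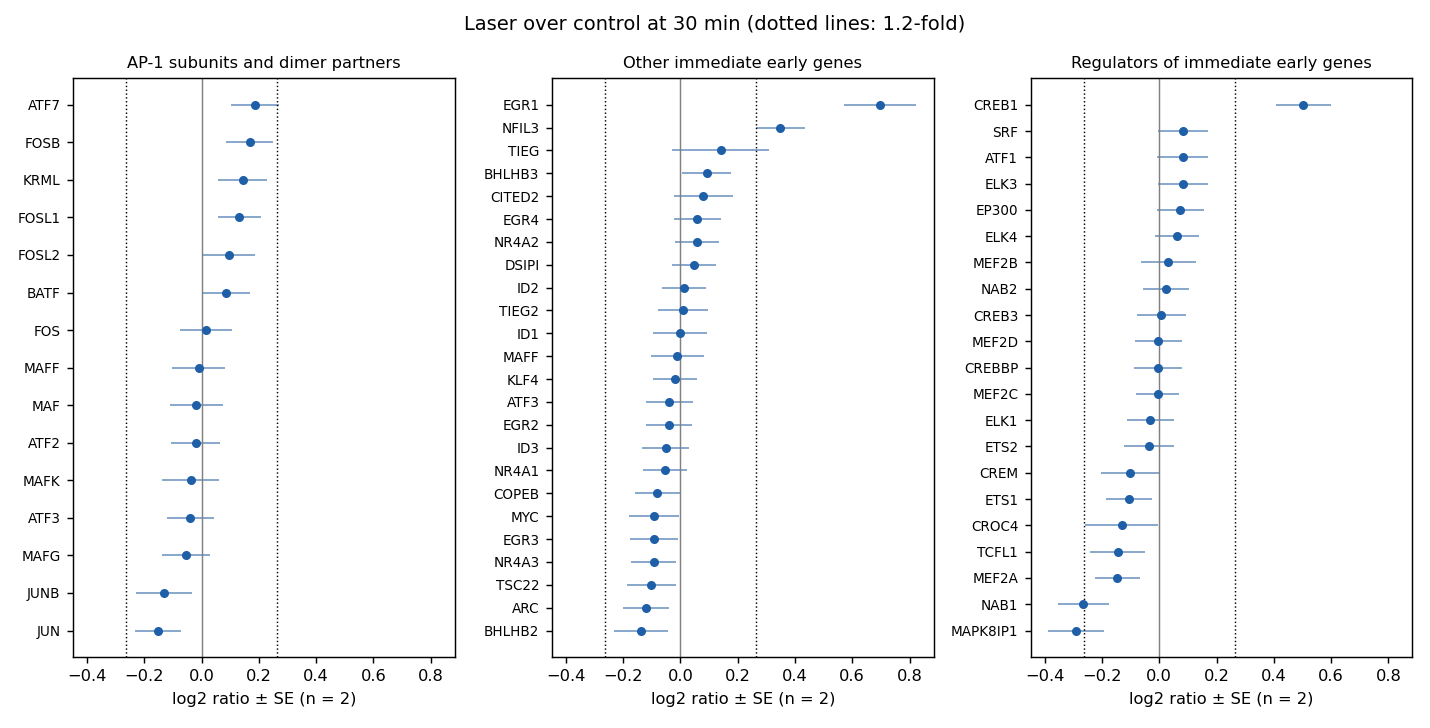
The x axis is the log2 ratio of laser over control at 30 min for the measured members of 3 lists (y axis), with points at the mean of 2 replicates and bars of 1 SE. Dotted lines mark 1.2-fold. Over the 3 lists together, 53 of 58 genes lay within 1.2-fold, and EGR1, NFIL3, CREB1, NAB1 and MAPK8IP1 lay outside.

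Several genes that passed the unadjusted p and 1.2-fold had orientation means of opposite sign, 13 of the 52. EGR1 was the largest of these. CDO followed with a mean of -0.58 ± 0.13 (SE, n = 2; adjusted p = 0.205), from an orientation mean of 0.22 with the laser RNA in Cy3 and of -1.39 in Cy5. The replicate means of CDO were -0.84 and -0.33. KCNN2, the calcium-activated potassium channel SK2 of hair cells, had a mean of -0.56 ± 0.15 (SE, n = 2; adjusted p = 0.225), from 0.25 in Cy3 and -1.37 in Cy5. Its replicate means were -0.94 and -0.19. In replicate 1 KCNN2 ran from -3.84 through -2.05 to 0.26 in Cy5 and from -0.69 through 0.35 to 0.73 in Cy3, and 4 of 25 arrays had a saturated spot.

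HES7, a Notch target that oscillates in the segmenting embryo, had a mean of -0.36 ± 0.14 (SE, n = 2; adjusted p = 0.445), from 0.44 in Cy3 and -1.17 in Cy5. Its replicate means were -0.70 and -0.02. Its 7 Cy5-laser arrays of replicate 1 were all below 0, and 5 of 25 arrays had a saturated spot. CDO, KCNN2 and HES7 each had a dye term of about -1.6 (-1.61, -1.62 and -1.61), with adjusted p of 0.00287, 0.00287 and 0.000971.

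In 7 lists of other pathways, 6 of 141 genes passed the unadjusted p and 1.2-fold (4.26%, each gene counted 1 time), beside 3.45% of all genes. In the stress and damage list, 1 of 25 members passed (UBB, lower), with a list median of 0.0003. Of 27 NFKB, STAT and IRF factors, 0 passed, with a median of -0.003. Of 20 TGF-beta and SMAD genes, 1 passed (TGFB1I1, lower), with a median of -0.02. Of 10 Notch genes, 1 passed (HES7, lower), and of 10 WNT and TCF/LEF genes, 0 passed, with medians of -0.001 and 0.008. The circadian list had 1 of 17 past (NR1D2, lower), with a median of 0.03. In the cell cycle list 2 of 34 passed, both lower, with a median of -0.02. These were MAX, the partner of MYC, at -0.29 ± 0.08 (adjusted p = 0.325), and TFDP1, the partner of E2F factors, at -0.28 ± 0.09 (adjusted p = 0.422; both SE, n = 2). Neither of them had the same sign in all 4 means. The TFDP1 ratio was below 0 on 6 of 6 Cy3-laser arrays of replicate 1, from -0.49 through -0.33 to -0.18.

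Markers of the cells that a culture could hold were described in the same way, again beside 3.45% of all genes past the unadjusted p and 1.2-fold. These lists are short, so that a single gene sets the share of most of them. The otic and sensory lineage list held 41 measured genes, of which 1 passed (NEUROG1, higher), with a median of -0.002. Of 13 supporting cell markers 0 passed, with a median of -0.03, and SOX2, GATA3 and PROX1 were at -0.03, -0.02 and -0.09. Of 5 hair cell markers, KCNN2 passed as given above, and the other 4, including ATOH1 at -0.02 and POU4F3 at 0.12, lay between -0.02 and 0.12. The control channel signal reached 1000 on 15 of 25 arrays for ATOH1 and on 14 of 25 for POU4F3, and on 11 for SOX2, while it did so on 23 for GATA3. Markers of both cell types were thus under 1000 on part of the arrays. A signal just over 1000 does not set a probe apart from the control oligos.

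Of 9 neuron markers, NEUROG1 passed, and the other 8 lay between -0.07 and 0.11 with a median of 0.05. NEUROD1, which acts downstream of NEUROG1 in neuroblasts, was at 0.05 and POU4F1 at -0.07. The summed unnormalized signal of all 9 neuron markers had a median of 28289 in laser RNA and of 26243 in control RNA. The ranges were 11276 to 113491 and 7472 to 85550. NEUROG1 is part of this sum, which is thus not a separate measure of neuron content. Of 15 stroma and mesenchyme markers and 12 blood cell markers, 0 passed, with medians of -0.02 and 0.0003. The part of cell makeup in the NEUROG1 ratio was not tested.

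Compared with the mean of the later time points, 30 min had 0 genes (0%) past an adjusted p of 0.05 in limma and 175 (11.6%) at an unadjusted p under 0.05. The smallest adjusted p was 0.149, for EGR1, whose ratio was -0.09 at 1 hr, 0.10 at 2 hr and -0.06 at 3 hr, against 0.70 at 30 min (difference 0.72 ± 0.15, SE). NEUROG1 was at 0.20, -0.04 and 0.20 at the later times (difference 0.44 ± 0.11, adjusted p = 0.221). CREB1 was at -0.03, 0.02 and 0.25 (difference 0.42 ± 0.11, adjusted p = 0.221), and NFIL3 was at 0.23, -0.16 and 0.12 (difference 0.29 ± 0.10, adjusted p = 0.294). FOS stayed within 0.05 of 0 on the log2 scale at all times, at -0.04, 0.03 and 0.04. KCNN2 was at 0.27, 0.14 and -0.38 and UBB at -0.10, 0.07 and -0.37. None of these differences passed the adjusted threshold, which does not show that the levels were alike across time.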

How the data were processed

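The authors measured each channel of each array with ImaGene and deposited unnormalized mean intensities of spots and their surroundings. They also deposited a table of log2 ratios of laser over control. It was checked and equals the sign-turned log2 ratio of the raw signals to within 5.77e-15, so it entered only as an alternative. No spot was marked as poor, and the arrays that the study selected are not given in the sources used here, so all 25 were used.

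Intensities were background corrected by normexp (offset 50) and normalized by loess within each array in limma 3.58.1 under R 4.3.3, with the 27 control names at weight 0. Of 1534 names, 1507 were genes. Spots of a gene, mostly 2, were averaged. The sign was turned on Cy3-laser arrays. Arrays were averaged within orientation and orientations within replicate. Time point means were fitted with lmFit and eBayes (residual degrees of freedom 4, prior 8.98), with Benjamini-Hochberg adjustment over 1507 genes. The dye term was fitted on orientation means with a term for each replicate. The procedure was tested on simulated data, with noise independent between arrays and no effect of header date. That test does not show how the procedure performs on these arrays. With 2 replicates per time point the precision is limited by their number, and p-values measure the spread between these RNA pairs.

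Genes were named by rule: the 12 largest that agreed in sign and passed the unadjusted p and 1.2-fold, members of the immediate early lists that passed with FOS, JUN, EGR1 and SRF, up to 4 that passed from each other list, and the 4 largest with opposed orientations. Others are given as examples of their lists or to complete a count, and were chosen after their values were seen. The members and lists were chosen with earlier results of these data known.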

Additional observations from a re-analysis of the deposited data

Results flagged for a closer look

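Among the array values of the 24 named genes, 3 lay far from the other arrays of the same replicate and dye orientation, of 96 groups of arrays looked at. Chance flags about 1 in 20 such groups. CREG was at -1.85 on array 4 of replicate 2 with the laser RNA in Cy3, and the next lowest of the 6 arrays was at -0.40. MAPK8IP1, the JNK scaffold, was at -2.70 on array 1 of replicate 1 with the laser RNA in Cy5, and the next lowest of the 7 arrays was at -0.70. That array has header date A and the widest spread of log2 ratios of all 25 arrays (SD 0.82). SRF was at 0.83 on array 6 of replicate 2 with the laser RNA in Cy3, and the next highest of the 6 arrays was at 0.30.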

How the results depend on the processing

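The counts below are in the order of genes past the adjusted p with 1.2-fold (0 with the settings of the report), past the unadjusted p with 1.2-fold (52), of the same sign in both dyes and replicates (126) and meeting the last 2 criteria together (22). Raw signal without background correction gave 2 genes by adjusted p (NEUROG1 and EGR1), 23 by unadjusted p and 13 by both, and a dye term passed for 93 genes in place of 57. Plain background subtraction gave 15 genes with a dye term, and the smallest adjusted p in limma rose to 0.698. Scaling the arrays to the same spread gave 24, 12 by both criteria and 36 with a dye term, with a smallest adjusted p of 0.202. The authors' table of log2 ratios, whose median over genes was 0.16 above 0, gave 4 by adjusted p (NEUROG1, EGR1, CREB1 and ATBF1), 215 (212 higher), 38 by both, 685 with a dye term, and 8 that differed from the later time points. Medians over arrays in place of means gave 19 genes by unadjusted p and 8 by both criteria, with a smallest adjusted p of 0.202. In limma the smallest adjusted p was 0.168 with all arrays weighted equally and 0.419 with the replicates at 30 min alone in the fit. The methods' t-test, with the 25 arrays as if independent, gave 38 genes by unadjusted p and 1 after Benjamini-Hochberg adjustment (NEUROG1, adjusted p = 0.0334).

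With arrays of 1 dye alone, the sign criterion compared the 2 replicates only. Without a replicate it compared the 2 dyes only. The last 2 counts of these settings thus use a looser criterion than the one defined above. Cy3-laser arrays alone gave 5, 229, 1075 and 227 genes, and reversed JUN (0.079), HES7 (0.44), KCNN2 (0.25) and CDO (0.22). Cy5-laser arrays alone gave 42, 233, 858 and 228 genes and 1 that differed from the later times, and reversed EGR1 (-0.14), FOS (-0.076) and SRF (-0.12). With no array turned the ratio is Cy5 over Cy3, which compares the dyes and not laser with control. The counts were then 57, 199, 504 and 163, with 4 against the later times. CREG (0.054), NFIL3 (-0.11), EGR1 (-0.84), NAB1 (0.078), FOS (-0.092), SRF (-0.20) and TFDP1 (0.024) reversed. Leaving out the arrays of header date A gave 4 by adjusted p, and averaging header dates first gave 4, with 29 by unadjusted p. Leaving out a replicate gave 0 to 1 genes by adjusted p (EGR1, 1.06 without replicate 1), 60 to 147, 426 to 631 and 35 to 105 genes, and 0 to 1 against the later times, and FOS, at 0.15 without replicate 1, reversed without replicate 2 (-0.12). A lone replicate was assumed to vary like those of the other time points. Of the 24 named genes, 13 kept their direction under all 18 alternatives. These were 4 higher (NEUROG1, CREB1, ATBF1 and CHFR) and 9 lower (UBB, HOXD9, ETV5, HSHPX5, FOXL2, NR1D2, MAPK8IP1, TGFB1I1 and MAX). All of them but MAX had the same sign in all 4 means of replicate and dye. Settings that only average these 4 means in another way cannot reverse such a gene. Among those settings are arrays of 1 dye alone, a replicate left out and the replicate block. The kept direction is thus in part built in and is not an independent check. The adjusted p lay between 0.00209 and 0.718 for NEUROG1 and between 0.012 and 0.985 for CREB1. The 18 include the setting with no array turned, which does not show the direction of laser over control. CREG, NFIL3, NAB1 and TFDP1 reversed in that setting alone. The causes of these changes were not tested. Leaving out 1 array at a time reversed FOS (down to -0.02), moved NFIL3 (0.21), JUN (-0.10) and SRF (0.05) by over 1.5 times, and ended the agreement in sign of 8 of 15 named genes (UBB, ETV5, CREG, NFIL3, NR1D2, CHFR, MAPK8IP1 and NAB1).

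The replicate numbers were not shown to pair samples across time points, since differences between replicates correlated at -0.25 to 0.17 over genes. With the replicate block the counts were 0, 52, 126 and 22, and it changed no call. The comparison with the later times could not be fitted with the replicates at 30 min alone. Signal limits the dim probes. A mean signal under 1000 was found for 152 of 1507 genes, and probes just over 1000 were also at the level of the control oligos. Leaving them out kept the 52 genes.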
